A study of Mus musculus with 6 samples.

Results

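The genes described here mark the enteric nervous system, the network of neurons and glia in the gut wall. They were 27 genes chosen by name: neuron, synapse, transmitter, glia, receptor, adhesion and transcription factor genes. Each was read from the probe set (a group of short probes for 1 transcript) that named no other gene and had the highest mean over the 6 arrays. Of the 27 genes, 21 lay above log2 4 on at least 3 arrays and were tested, among 10488 tested genes in all. The other 6, Nefm, Syp, Chat, Gfap, S100b and Gfra1, did not pass this filter and are given as values only.

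RNA came from whole colon of C57BL/6 mice, 6 to 8 weeks old, that drank 2.5% dextran sodium sulfate (DSS), which injures the colonic epithelium, and were killed on day 7. In 3 mice both Pparg alleles were floxed and Cre was driven by the lysozyme M promoter, active mainly in macrophages, monocytes and neutrophils (Pparg-deficient, Cre+). The 3 controls were Cre- littermates with the same floxed alleles. Each array held RNA of 1 mouse, no animal went without DSS, and Cre effects cannot be told apart from loss of PPAR gamma.

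Enteric neurons sit in 2 layers, the myenteric plexus between the muscle coats and the submucosal plexus beneath the mucosa, and glia wrap them. Motor neurons relax gut muscle with nitric oxide and vasoactive intestinal peptide or contract it with acetylcholine and tachykinins. The network forms from neural crest cells that need the receptor Ret, its co-receptor Gfra1 and the endothelin receptor Ednrb. Several of these genes are also used outside the nervous system, in enteroendocrine, stromal, endothelial or immune cells.

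Levels below are log2 expression values, in the order of replicates 1 to 3 of a group. The label fits the neuronal members better than the glial ones. Gfap, the filament of mature glia, lay at 2.87 on each of the 3 deficient arrays and at 2.74, 3.35 and 2.97 on the control arrays. S100b, a calcium-binding protein of glia, lay between 2.60 and 2.65 on all arrays. Both are close to the lowest value in the table, 2.25, so glia were represented by Sox10 alone, a transcription factor of glia and their precursors. Chat, which makes acetylcholine, was also at the floor, at 2.25 to 2.27.

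The arrays were similar in range, with 41.4% to 42.7% of probe sets above log2 4. Deficient replicate 3 and control replicate 1 carried genes of the small intestine, although all samples are labelled colon. The ileal gene Fabp6 was at 14.49 and 15.32 on these arrays and between 5.72 and 7.81 on the other 4. The colonocyte gene Car1 was at 7.02 and 2.83 on them and between 13.60 and 15.32 on the other 4. Apoa1, also a gene of the small intestine, was at 15.23 on deficient replicate 3 and 15.46 on control replicate 1. On deficient replicate 1 it was at 7.38, against 3.82 to 4.72 on the remaining arrays. Control replicate 2 alone expressed Xist, at 12.11 against 2.25 elsewhere. Pparg, the targeted gene, was at 8.77, 8.23 and 4.15 in deficient and 5.28, 9.91 and 9.54 in control colon, so the groups overlapped. It was low on both arrays that carried small intestine genes, by -4.40 relative to the other 4. Within each kind of array, Pparg was lower in deficient colon. The log2 difference was -1.22 over the other 4 arrays, and deficient replicate 3 was below control replicate 1. Over all arrays it was -1.19 ± 1.73 (standard error). Lyz2, which carries the Cre, was at 6.80, 6.24 and 10.39 in deficient and 12.32, 11.79 and 12.19 in control colon.

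No enteric neuron or glia gene could be told apart between the genotypes with 3 mice per group. Of the 21 tested, 15 were higher and 6 lower in deficient colon, with a median log2 difference of 0.11, beside 0.06 over all genes. None passed the limma test (Benjamini-Hochberg adjusted p under 0.05), and of all 10488 genes 0% did. At an unadjusted limma p under 0.05 there was 1 member, Tac1, while 7.47% of all genes reached it. Groups did not overlap for 1 member, again Tac1, against 13.5% of all genes. Of all genes, 57.1% had a higher mean in deficient colon. The median turned to -0.14 without deficient replicate 2 and was 0.60 without deficient replicate 3. Intervals were wide, with a median half-width of 1.48 on the log2 scale at 95%, and for 3 members (Sox10, Ncam1 and Ednrb) they stayed within -1 to 1.

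The members varied widely between individual arrays. Their mean level was 6.58, 7.63 and 6.01 on the deficient arrays and 6.00, 6.76 and 6.86 on the control arrays. Deficient replicate 2 stood highest, the arrays with small intestine genes lowest, and the other 3 lay close together. The gap between the highest and lowest array had a median of 2.22 over the members, against 0.98 over all genes.

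**Figure D1:**
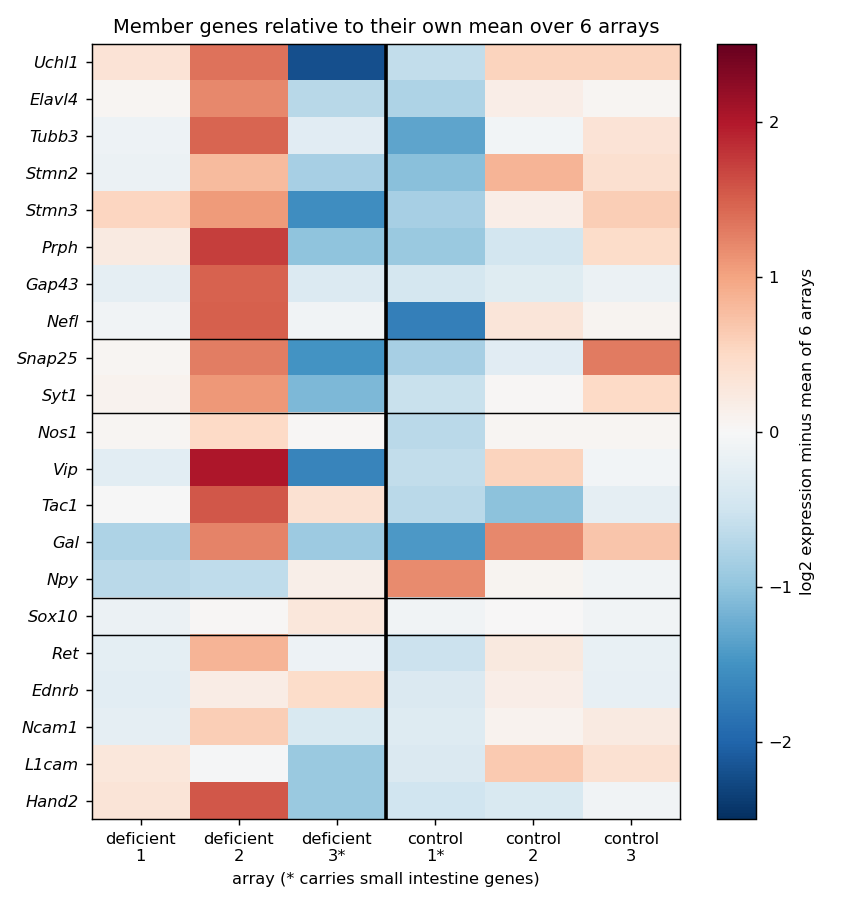
Log2 expression of the 21 tested genes (rows, grouped by role) on the 6 arrays (columns, deficient left and control right), minus each gene's mean over the arrays. Red marks values above and blue values below that mean. The column of deficient replicate 2 is red in most rows, and both starred columns are mostly blue.

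Tac1 encodes the precursor of substance P and neurokinin A, tachykinins of excitatory motor and sensory neurons that enterochromaffin cells can also make. It stood at 8.89, 10.44 and 9.28 in deficient and 8.22, 7.87 and 8.68 in control colon. All 3 deficient arrays were above all 3 control arrays. The mean was 9.53 ± 0.81 in deficient and 8.26 ± 0.41 in control colon (SD, n = 3 each), which gives a log2 difference of 1.28 ± 0.45 (standard error) and a 95% interval of 0.16 to 2.39. Adjusted over all genes, the limma p was 0.67, so Tac1 is not a call. The difference was 1.39 over the 4 arrays low in small intestine genes, 1.05 between the remaining pair, and 0.82 (without deficient replicate 2) to 1.60 when each array was left out in turn. Without control replicate 1 or control replicate 2, no member had an unadjusted limma p under 0.05, which 11.3% and 4.14% of all genes reached in these fits.

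Vip encodes vasoactive intestinal peptide, which relaxes muscle and drives secretion. It stood at 10.02, 12.30 and 8.64 in deficient and 9.66, 10.84 and 10.22 in control colon. The deficient group held both the highest and the lowest value, so the groups overlapped throughout. The log2 difference was 0.08 ± 0.94 (standard error), with a 95% interval of -2.23 to 2.39 (limma adjusted p 0.99). It turned to -0.91 without deficient replicate 2.

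The promoters of Tac1 and Vip are shown because the expression of both genes is known to respond to cyclic AMP, and they are the neuropeptide members with the largest excess on deficient replicate 2. The 250 bases before each RefSeq start (GRCm38.p6, 5′ to 3′ on the coding strand) were searched for TGACG, the half-site of the cyclic AMP response element, on both strands, and for TATAAA on the coding strand. Matches are in capitals, so a half-site on the opposite strand reads CGTCA.
Tac1, chr6:7554811-7555060, plus strand: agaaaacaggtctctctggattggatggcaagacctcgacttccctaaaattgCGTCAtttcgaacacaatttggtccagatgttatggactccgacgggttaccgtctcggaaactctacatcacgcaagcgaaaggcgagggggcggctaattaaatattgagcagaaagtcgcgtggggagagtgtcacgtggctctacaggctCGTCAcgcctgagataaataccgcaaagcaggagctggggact
Vip, chr10:5638968-5639217, plus strand: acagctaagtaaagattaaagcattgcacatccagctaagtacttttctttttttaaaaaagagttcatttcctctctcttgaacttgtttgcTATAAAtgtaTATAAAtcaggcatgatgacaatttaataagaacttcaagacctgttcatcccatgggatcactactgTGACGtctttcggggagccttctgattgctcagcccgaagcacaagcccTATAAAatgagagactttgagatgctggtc
The Tac1 window held the half-site at -197 to -193 and -43 to -39, both on the opposite strand, and no TATAAA. The Vip window held it at -79 to -75 and TATAAA at -30 to -25, with further TATAAA matches at -157 to -152 and -147 to -142. RefSeq windows were at hand for 19 of the 27 genes, and 7 of these genes held the half-site: Chat, Ednrb, Elavl4, Hand2, Nos1, Tac1 and Vip. Some genes had several windows, and 9 of the 24 member windows held the half-site, against 17.8% of all 32851 windows in the table. TATAAA was in 2 of the 24 (Prph and Vip), against 7.59% of all. The full element, TGACGTCA, was in no member window and in 1.55% of all. These matches describe letters, not sites of binding.

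Gal encodes galanin, a peptide of submucosal and myenteric neurons. It was at 8.47, 10.47 and 8.33 in deficient and 7.80, 10.43 and 9.92 in control colon. From the mean of control replicates 2 and 3, deficient replicate 1 differed by -1.71 and deficient replicate 2 by 0.29. The log2 difference was -0.29 ± 0.89 (standard error, limma adjusted p 0.95).

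Npy, neuropeptide Y, is used by enteric neurons and by the sympathetic fibres that reach the gut. It was the member with the most negative difference, at 4.54, 4.58 and 5.36 in deficient and 6.40, 5.29 and 5.14 in control colon. Deficient replicate 3 lay among the control values, and the other deficient arrays were below all of them. The log2 difference was -0.78 ± 0.42 (standard error), with a 95% interval of -1.81 to 0.25 (limma adjusted p 0.71). Over the 4 arrays low in small intestine genes it was -0.65, and between the remaining pair -1.04. Unlike most members, Npy was higher on the arrays with small intestine genes, by 0.99.

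Nos1, the neuronal nitric oxide synthase of inhibitory motor neurons, had overlapping groups. It was at 5.58, 6.04 and 5.57 in deficient and 4.86, 5.58 and 5.58 in control colon. Deficient replicate 1 and control replicates 2 and 3 held the same value to every digit given, and the reason for this tie was not tested. The log2 difference was 0.39 ± 0.27 (standard error, limma adjusted p 0.76), and its 3 other probe sets lay below log2 4 on every array.

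**Figure D2:**
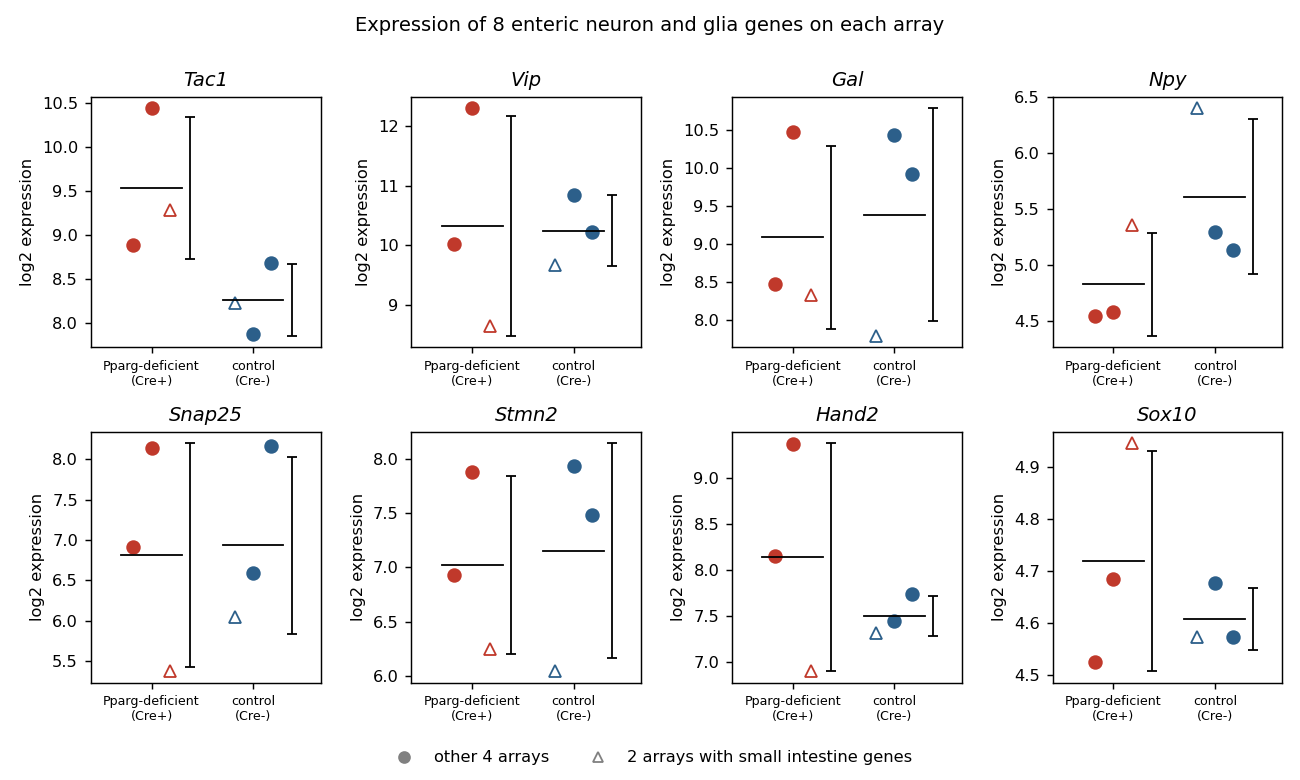
Log2 expression (y axis) of 8 genes on each array, Pparg-deficient left and control right. Points are mice, open triangles the arrays with small intestine genes, lines group means and bars the SD (n = 3). The Tac1 groups do not overlap, and in the Vip panel the deficient points span 8.64 to 12.30.

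Of 9 pan-neuronal and axonal genes, 8 were tested, and 7 of these were highest on deficient replicate 2. The exception was Stmn2, highest on control replicate 2. By genotype 6 were higher and 2 lower in deficient colon, with a median difference of 0.49 and no call. Stmn2, a regulator of microtubules in growing axons, was at 6.93, 7.88 and 6.25 in deficient and 6.04, 7.93 and 7.48 in control colon. Its difference was -0.13 ± 0.63 (standard error, limma adjusted p 0.97). The relative Stmn3 differed by 0.03 on its brighter probe set, of a class prone to cross-hybridisation, and by -0.60 on the other, so its direction is uncertain.

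Uchl1, the abundant neuronal ubiquitin hydrolase known as PGP9.5, was at 5.51, 6.53 and 2.99 in deficient and 4.55, 5.72 and 5.74 in control colon. Deficient replicate 3 was the only array below log2 4. The difference was -0.33 over all arrays and 0.29 over the 4 arrays low in small intestine genes (limma adjusted p 0.95 and 0.75).

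Gap43, a growth cone protein of sprouting axons, was at 5.71, 7.41 and 5.60 in deficient and 5.49, 5.63 and 5.78 in control colon. Only deficient replicate 2 stood out, and the other 5 arrays lay within 5.49 to 5.78. The difference was 0.60 ± 0.51 (standard error) over all arrays and 0.02 without that one. Prph, the filament peripherin of peripheral neurons, was at 5.28, 6.78 and 4.04 in deficient and 4.12, 4.59 and 5.50 in control colon. Its difference was 0.63 with all arrays and -0.08 without deficient replicate 2.

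Nefl, the light neurofilament chain, was at 4.82, 6.40 and 4.82 in deficient and 3.19, 5.21 and 4.97 in control colon, a difference of 0.89 ± 0.70 (standard error). The difference was 0.26 without control replicate 1 and 0.37 without deficient replicate 2. Its second probe set differed by -0.20 and was above log2 4 on 1 array. Tubb3, neuronal beta tubulin, differed by 0.69, with 4.86, 6.43 and 4.71 in deficient and 3.67, 4.93 and 5.33 in control colon. Elavl4, an RNA-binding protein of neurons also called HuD, differed by 0.37, with 5.37, 6.53 and 4.63 in deficient and 4.55, 5.50 and 5.37 in control colon. The other Elavl4 probe sets differed by 0.44 (above log2 4 on 5 arrays) and by -0.33 (above log2 4 on 3 arrays). The direction of Elavl4 is therefore uncertain. For Nefl, Tubb3 and Elavl4, the probe set tested was highest on deficient replicate 2 and lowest on control replicate 1. The medium neurofilament chain Nefm, not tested, passed log2 4 on deficient replicate 2 alone, at 4.82.

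Both synaptic genes tested were lowest on the arrays with small intestine genes. Snap25, a membrane fusion protein of nerve terminals that endocrine cells also use, was at 6.91, 8.14 and 5.37 in deficient and 6.04, 6.59 and 8.16 in control colon. Its difference was -0.12 ± 0.86 (standard error, limma adjusted p 0.98). Syt1, the calcium sensor of vesicle release, differed by 0.02, with 4.72, 5.72 and 3.50 in deficient and 4.08, 4.65 and 5.14 in control colon. Syp, the vesicle protein synaptophysin, was under log2 4 on all arrays, at 2.92 to 2.95 in deficient and 3.06 to 3.54 in control colon, where differences are compressed by the floor.

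Sox10, the one glial gene tested, was nearly flat, at 4.53, 4.69 and 4.95 in deficient and 4.57, 4.68 and 4.57 in control colon. The difference was 0.11 with a 95% interval of -0.31 to 0.53. Its range over the arrays, 0.42, was the smallest among the 21 genes. Its values were not far above the filter, and its 2 other probe sets lay near the floor, at 2.25 to 2.70. Control replicates 1 and 3 held the same value, 4.57, to every digit given. Whether this flat level and its narrow interval follow glia or the background of the probe set was not tested.

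Receptors and adhesion molecules spanned 0.80 to 1.59 between their lowest and highest array, against 1.89 to 3.55 for the 8 axonal genes tested. Ret, the receptor tyrosine kinase for glial cell line-derived neurotrophic factor (GDNF), was at 6.27, 7.36 and 6.39 in deficient and 5.96, 6.74 and 6.32 in control colon, a difference of 0.33 ± 0.37 (standard error). Its partner Gfra1 was at the floor, at no more than 2.92. Ednrb, the receptor for endothelin 3, was at 8.41, 8.85 and 9.12 in deficient and 8.31, 8.84 and 8.46 in control colon. Its difference was 0.25 with a 95% interval of -0.37 to 0.88, and it was highest on an array with small intestine genes.

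Ncam1, a neural cell adhesion molecule, was at 6.75, 7.59 and 6.60 in deficient and 6.66, 7.06 and 7.20 in control colon. Its difference was 0.01, with a 95% interval of -0.78 to 0.79. L1cam, an adhesion molecule of growing axons also made by epithelium, was at 9.30, 8.99 and 8.08 in deficient and 8.64, 9.67 and 9.40 in control colon. It was lower by a log2 difference of -0.45 ± 0.42 (standard error, limma adjusted p 0.81). Without deficient replicate 3 the difference was -0.097, and without control replicate 1 it was -0.75. Deficient replicate 2 was not raised here, with a difference of -0.55 from the mean of control replicates 2 and 3.

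Hand2, a transcription factor of enteric neurons that gut mesenchyme also expresses, was at 8.15, 9.37 and 6.90 in deficient and 7.31, 7.44 and 7.73 in control colon. Both deficient arrays low in small intestine genes were above all controls, and the third was below all of them. The difference was 0.64 over all arrays (limma adjusted p 0.82), 1.17 over the 4 arrays low in small intestine genes, and -0.41 between the remaining pair. It was 0.027 without deficient replicate 2 and 1.26 without deficient replicate 3.

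**Figure D3:**
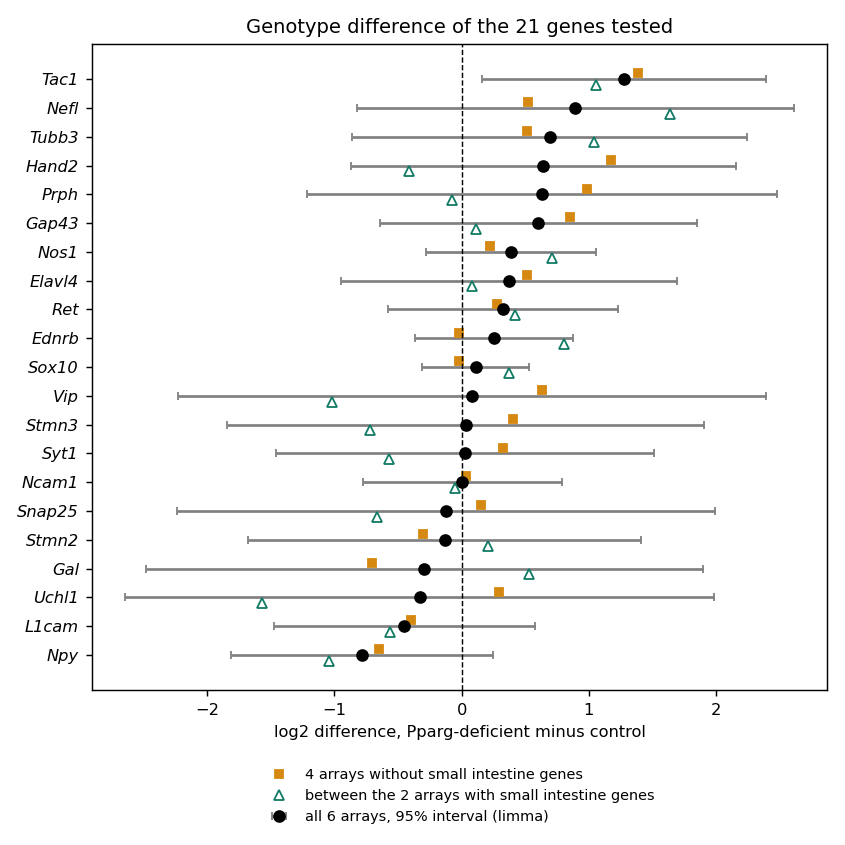
Log2 difference, Pparg-deficient minus control, of the 21 tested genes. Black points and bars are the limma estimates over 6 arrays with 95% intervals, squares the difference over 4 arrays and triangles that between the remaining pair, which carry small intestine genes. The interval of Tac1, 0.16 to 2.39, is the only one that leaves out 0, with no adjustment for the number of genes.

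Most neuronal genes were at their lowest on both arrays with small intestine genes. For 15 of the 21 members, both were below all 4 other arrays, which held for 21% of all genes tested. The members were lower there by a median log2 difference of -1.10, against -0.05 over all genes. Uchl1 was lowest relative to the other arrays, by -2.10, followed by Stmn3 at -1.78, Gal at -1.76 and Snap25 at -1.75. The exceptions with a higher mean there were Npy, Sox10 at 0.14 and Ednrb at 0.08. In whole tissue, fewer neurons, less RNA per neuron, another bowel region and a different mix of tissue layers cannot be told apart. These arrays were set apart by their small intestine genes, so this is a description and no test.

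Muscle and stromal markers were also low on these arrays. The mean level of 15 smooth muscle markers was 10.40, 10.37 and 9.87 in deficient and 9.51, 10.51 and 10.47 in control colon. Both arrays with small intestine genes were below the other 4 for 8 of the 15, with a median difference of -0.72. For the pacemaker cell markers Kit and Ano1 both were below for 2 of 2, with a median of -1.73, and for fibroblast markers this held for 6 of 7. Epithelial markers ran slightly the other way, with a median of 0.16 over 8 genes. The part of muscle or stromal content in the level of the neuronal genes was not tested.

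Most members were at their highest on deficient replicate 2. It held the highest value for 15 of the 21 members, and for 28.9% of all genes. Set against control replicates 2 and 3, it was above both for 17 members (44.9% of all genes) with a median difference of 0.80. The largest excess was in Tac1 at 2.17, then Hand2 at 1.78, Vip at 1.77, Prph at 1.74 and Gap43 at 1.70. Deficient replicate 1, of the same genotype, was low in Fabp6 but had some Apoa1, at 7.38. It was above both controls for 2 members (42.4% of all genes), Tac1 and Hand2. It was below both for 12 (27.5% of all genes). Its median difference from them was -0.24.

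Smooth muscle did not share the excess of deficient replicate 2, which was highest for 4 of 15 smooth muscle markers and for neither Kit nor Ano1. Fibroblast markers did, with 7 of 7 highest there and a mean level of 11.52, 12.46 and 11.12 in deficient and 10.41, 11.54 and 11.65 in control colon. Neutrophil markers did too, for 5 of 5, with means of 7.86, 9.91 and 6.08 in deficient and 4.47, 4.16 and 5.97 in control colon. Macrophage markers were highest there for 7 of 10, with group means of 8.06 ± 0.51 in deficient and 7.12 ± 0.16 in control colon (SD, n = 3 each). In the mean level of both lists, all 3 deficient arrays lay above all 3 control arrays. For neutrophil markers the margin was narrow, at 6.08 against 5.97. The higher level of these 2 lists was therefore not confined to deficient replicate 2. No gene of either list passed the limma adjusted p. The part of stromal or inflammatory content in the level of the neuronal genes was not tested.

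**Figure D4:**
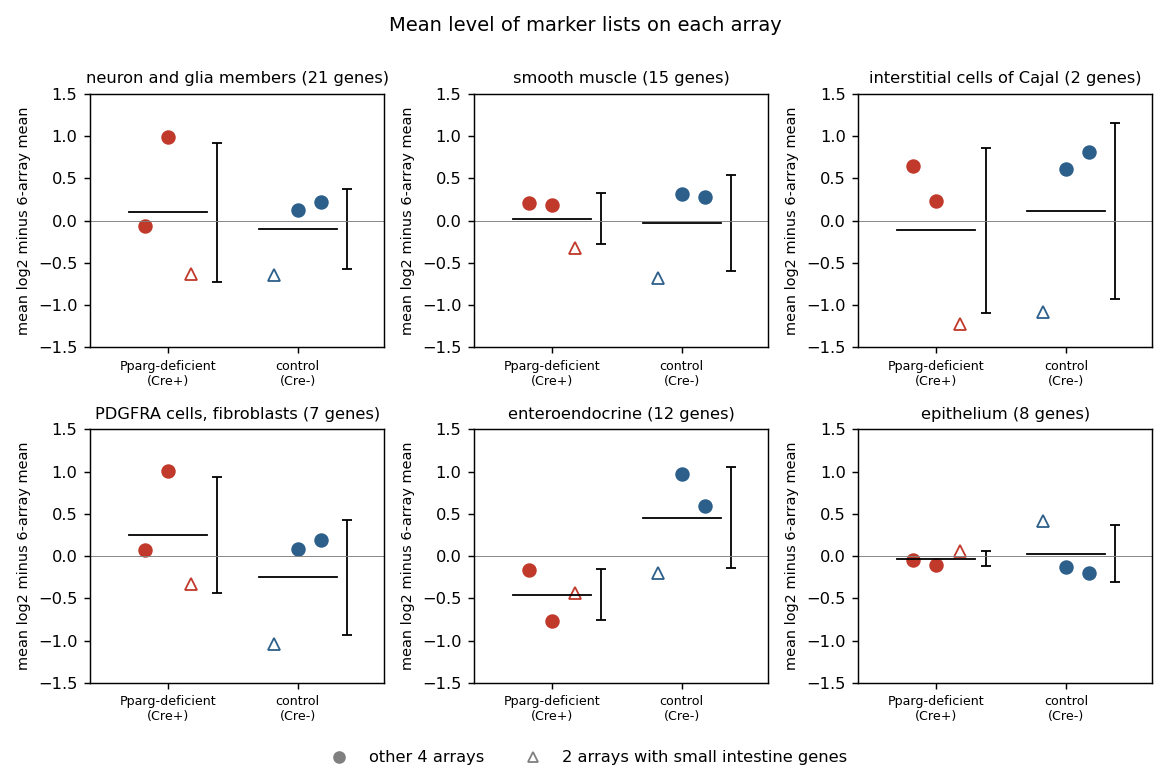
Mean log2 level of the tested members and of 5 marker lists on each array, minus the mean over the 6 arrays, Pparg-deficient left and control right. Open triangles are the arrays with small intestine genes, lines group means and bars the SD (n = 3). The members and the fibroblast markers have the same high deficient point, at 7.63 and 12.46 before centring, which the muscle panels lack.

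On the 4 arrays low in small intestine genes, 4 members had groups that did not overlap, against 48.9% of all genes. Tac1 and Hand2 were higher, and Npy and L1cam were lower in deficient colon. None passed the limma adjusted p, which ran from 0.32 for Npy to 0.49 for L1cam, with 0.41 for Tac1 and 0.38 for Hand2. The median over the 21 members was 0.29 there and 0.08 between the remaining pair, where 11 of 21 members and 50.4% of all genes were higher on the deficient array.

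Other enteric neuron genes, 24 tested of 58 listed, split evenly into 12 higher and 12 lower, with a median difference of -0.02 and no call by limma. At an unadjusted p under 0.05 there were 0 higher and 2 lower, while 5.1% of all genes were higher and 2.36% lower at that p. Those 2 were Sst, somatostatin of neurons and endocrine cells, at 6.37, 7.14 and 6.98 in deficient and 7.56, 7.66 and 8.04 in control colon, and Ddc, which makes dopamine and serotonin. Ddc differed by -1.50 and was at 8.18, 7.24 and 7.31 in deficient and 10.12, 8.25 and 8.85 in control colon. Unlike most neuronal genes, its mean was higher on the arrays with small intestine genes, by 0.59. The cells that gave the Ddc signal were not tested. Dbh, the noradrenaline enzyme of sympathetic fibres, had the next smallest p and differed by -0.66 (limma adjusted p 0.72). On both arrays with small intestine genes 15 of these 24 genes were below the other 4 arrays. Deficient replicate 2 was highest for 12 of the 24, a smaller part than among the members, against 28.9% of all genes.

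Signals that build the network gave no call either, with 8 of 10 tested, 3 higher and 5 lower. Edn3, the ligand of Ednrb, differed by -0.96 ± 0.58 (standard error). It was at 4.75, 4.45 and 4.84 in deficient and 6.71, 5.83 and 4.40 in control colon. Nrg1, a neuregulin that acts on glial Erbb3, differed by 1.19 ± 0.75 (standard error). It was at 5.70, 7.51 and 4.62 in deficient and 4.47, 5.30 and 4.47 in control colon. Edn1, another endothelin, differed by -0.85 ± 0.84 (standard error). The limma adjusted p of Edn3, Nrg1 and Edn1 ran from 0.73 to 0.82. Gdnf and Nrtn, ligands of the Ret system, did not pass the filter. Of 17 further glial and Schwann cell genes 8 were tested, 3 higher and 5 lower. Gpm6b, a membrane proteolipid of glia and neurons, was at 8.38, 9.86 and 6.30 in deficient and 5.95, 7.66 and 7.36 in control colon, again highest on deficient replicate 2 and lowest on the arrays with small intestine genes. Its difference was 1.19 ± 0.97 (standard error). Mbp, a myelin protein, differed by -0.50 and Kcna1, a potassium channel, by -0.28, and the limma adjusted p of these 3 genes ran from 0.76 to 0.79.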

How the data were processed

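RNA of 6 mouse colons was hybridised to Affymetrix mouse arrays, 1 per mouse, with 3 mice per genotype. The authors deposited log2 values, 1 for each probe set and array, made with GCRMA per the submitters' processing notes. GCRMA subtracts a background modelled on probe sequence, so values near the floor are compressed. Which GCRMA version was used is not given in the sources used here. That the scale is log2 follows from the range of the values, 2.25 to 16.2. No further normalization was applied.

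Of 45101 probe sets, 34958 named 1 gene in the platform annotation, 932 named several and 9211 had none listed. Each of 18194 genes was represented by its single-gene probe set of highest mean and kept when above log2 4 on at least 3 arrays, which left 10488. All 27 members matched RefSeq symbols (GRCm38.p6). They had 63 single-gene probe sets, 27 of which passed that filter.

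The genotype test was limma's (version 3.58.1, R 4.3.3), a two-sided fit of deficient minus control by lmFit and eBayes without covariate, with Benjamini-Hochberg adjustment over all genes tested. Every unadjusted p, standard error and 95% interval is from this fit, or the fit named. The procedure was tested on simulated data. Members, lists and alternatives were chosen with earlier results of these data known. All members are described, and the 3 genes with the smallest p are named for the lists of other enteric neuron genes, signals and further glial genes. Cell type markers are given by list, with at most 3 defining genes each, and for enteroendocrine cells also the 2 that were higher. Alternatives changed the filter, the normalization, the probe set rule, the floor, the moderation, array weights, blocks, the arrays included, the threshold or the unit tested. The number of arrays limits the precision.

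Replicate numbers are not stated to pair the mice. Deviations from group means of same-numbered arrays correlated over genes at -0.54, 0.36 and -0.61. The highest correlation, 0.69, was between the arrays with small intestine genes, deficient replicate 3 and control replicate 1. These values therefore cannot show whether the mice were paired.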

Additional observations from a re-analysis of the deposited data

How the results depend on the processing

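No member passed an adjusted p under 0.05 (or 0.1) in any of the alternatives run, where the smallest limma adjusted p was 0.19. The direction held in every alternative that gave a value for 7 of 21 members (Tac1, Nefl, Hand2, Gap43, Nos1, Npy and L1cam). The second probe set of Nefl, which differed by -0.20, was not used alone in any alternative. The direction of Nos1 rests on few arrays, since deficient replicate 1 and control replicates 2 and 3 held an identical value. Tac1 was at 0.55 with array weights and 0.64 with the mean of all probe sets, against 1.28. Array weights gave 0.096 for Nefl, 0.085 for Gap43, 0.11 for Nos1 and -0.16 for L1cam, and the mean of all probe sets gave 0.16 for Hand2. With 1 array left out these ranged from 0.26 to 1.27 for Nefl, 0.027 to 1.26 for Hand2, 0.020 to 0.92 for Gap43, 0.15 to 0.51 for Nos1, -1.05 to -0.39 for Npy and -0.75 to -0.097 for L1cam. The other members turned sign in at least 1 alternative, and the cause of each turn was not tested. With array weights the differences were -0.039 for Sox10, -0.21 for Vip, -0.11 for Tubb3, -0.20 for Syt1, -0.055 for Ednrb, -0.32 for Ncam1 and -0.039 for Ret. With median centring they were -0.073 for Ncam1, -0.048 for Stmn3 and -0.054 for Syt1, and with quantile normalization -0.056 for Ncam1, -0.0085 for Stmn3 and -0.023 for Syt1. The mean of all probe sets gave 0.11 for Snap25 and -0.28 for Stmn3, and probe sets without suffix gave -0.60 for Stmn3. With values under log2 4 set to 4, Uchl1 differed by 0.0087. Without both arrays with small intestine genes the differences were -0.019 for Sox10, -0.020 for Ednrb, 0.15 for Snap25 and 0.29 for Uchl1. When each array was left out in turn, Vip ran from -0.91 to 0.92, Syt1 from -0.51 to 0.60, Stmn3 from -0.49 to 0.81, Ncam1 from -0.30 to 0.19, Stmn2 from -0.69 to 0.26 and Gal from -1.09 to 0.23. Snap25 ran from -0.79 to 0.60, Ret from -0.017 to 0.53, Prph from -0.078 to 1.30, Elavl4 from -0.14 to 0.81, Sox10 from -0.0021 to 0.21 and Uchl1 from -1.09 to 0.68. Members at an unadjusted p under 0.05 numbered 0 to 2 in these fits (4.11% to 11.3% of all genes), 0 with the replicate block (4.17% of all genes) and 3 with the small intestine profile as a block (Npy, Tac1 and L1cam, against 13.4% of all genes). Groups did not overlap for 1 to 3 members with 1 array left out (19.1% to 31.8% of all genes), 4 without both arrays with small intestine genes (48.9%) and 2 with no filter (Tac1 and Syp, against 8.63%). A filter at log2 6 left 11 members, the mean of all probe sets 15 and probe sets without suffix 19, so some genes have no value there.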

Other observations

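Enteroendocrine cells are hormone cells of the epithelium that share vesicle genes with neurons. Of their 12 tested markers 10 were lower in deficient colon, where 57.1% of all genes were higher. The median log2 difference was -0.88, with no limma call (smallest adjusted p 0.66). Their mean level was 7.65, 7.04 and 7.38 in deficient and 7.61, 8.79 and 8.41 in control colon, so the groups overlapped at control replicate 1. Tph1, which makes serotonin in enterochromaffin cells, was at 7.20, 4.70 and 4.15 in deficient and 4.94, 8.94 and 9.23 in control colon. Chga, a granule protein, was at 8.52, 6.49 and 6.62 in deficient and 7.65, 9.50 and 9.81 in control colon. Deficient replicate 2, highest for most members, was highest for 2 of these 12, Insl5 and Cck. These were also the 2 with a higher mean in deficient colon, by 1.93 and 0.60. Sst is in this list and in that of other enteric neuron genes.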
